A study of Mus musculus with 4 samples.

Results

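The genes described here are the transcriptional effectors of the Hippo pathway and genes that they control: Yap1, Wwtr1, Tead1, Tead2, Ccn1, Ccn2, Ankrd1, Amotl2, Lats2 and Ajuba. They were chosen by name, and a probe set belonged to a gene when the platform annotation gave that gene's symbol alone (Ccn1 and Ccn2 were formerly Cyr61 and Ctgf). All 10 were found among 18193 measured genes, through 23 of 45037 probe sets that were not controls. RNA came from primary mouse embryonic fibroblasts (MEFs) at passage 2 to 3, which had been cultured in 6% oxygen from minced torsos of day 13.5 or 14.5 embryos. There were 2 Pf1 KO lines (Pf1 -/-, lines 2 and 4) and 2 Pf1 WT lines (Pf+/+, lines 5 and 6), each on 1 array. Pf1, encoded by Phf12, is a PHD finger protein found with Sin3 and histone deacetylase corepressors, and the series asks about its part in nucleolar integrity. The labels describe neither the deleted part of the gene nor the embryo behind each line, so the p-values speak only of the spread among these 4 cultures.

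In the Hippo pathway a kinase cascade ending in Lats1 and Lats2 phosphorylates Yap1 and its relative Wwtr1 (also called Taz) and keeps them out of the nucleus. When the cascade is quiet, as in cells spread on a stiff surface, Yap1 and Wwtr1 enter the nucleus. There they bind the DNA-binding Tead proteins and switch on genes such as Ccn1, Ccn2 and Ankrd1. Some of the induced genes, Amotl2 and Lats2 among them, act back to restrain Yap1. Activity of Yap1 is set largely by the protein's phosphorylation and place in the cell, which transcript levels do not measure.

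Tead proteins recognise a short core, GGAATG, or CATTCC on the other strand. It was searched for on both strands in the window from 250 bases before to 50 bases after each annotated start (RefSeq, build GRCm38.p6), which 8 of the 10 genes had, all but Tead1 and Ccn2. The core stood in 7 of these 8 genes, against 16.6% of all 27025 genes with a window, and Tead2 had none. Among the related lists described below, it stood in 4 of 5 other Tead and Vgll genes and 7 of 15 Srf and contractile genes. It stood in 6 of 19 upstream Hippo genes, 3 of 16 other Yap targets, 1 of 7 matricellular genes and 1 of 9 immediate-early factors. The core was thus not particular to the 10 genes, and other Yap targets were near the share of all genes. Ankrd1 and Ajuba held it at 2 places each, against 1.57% of genes with at least 2. Also holding at least 2 were 3 of 19 upstream Hippo genes, 1 of 5 other Tead and Vgll genes and 1 of 7 matricellular genes. In the lists of other Yap targets, Srf and contractile genes and immediate-early factors, 0 genes did. At least 2 cores were in 2.07% of measured, windowed genes that rose, 1.32% of those that fell and 1.41% of those not called. The windows of 2 target genes that rose in the knockout, Ankrd1 and Ajuba, and of 2 that did not pass the test, Ccn1 and Amotl2, are shown with the core in capitals, each 5′ to 3′ on the gene's strand (Ankrd1 at chr19:36119795-36120094, Ajuba at chr14:54577612-54577911 and Ccn1 at chr3:145649936-145650235 on the minus strand, Amotl2 at chr9:102717554-102717853 on the plus strand).
Ankrd1: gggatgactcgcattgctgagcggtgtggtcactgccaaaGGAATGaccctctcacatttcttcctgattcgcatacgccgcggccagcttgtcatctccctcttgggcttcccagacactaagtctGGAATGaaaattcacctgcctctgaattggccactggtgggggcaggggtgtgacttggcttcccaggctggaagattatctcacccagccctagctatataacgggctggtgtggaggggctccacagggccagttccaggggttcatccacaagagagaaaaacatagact
Ajuba: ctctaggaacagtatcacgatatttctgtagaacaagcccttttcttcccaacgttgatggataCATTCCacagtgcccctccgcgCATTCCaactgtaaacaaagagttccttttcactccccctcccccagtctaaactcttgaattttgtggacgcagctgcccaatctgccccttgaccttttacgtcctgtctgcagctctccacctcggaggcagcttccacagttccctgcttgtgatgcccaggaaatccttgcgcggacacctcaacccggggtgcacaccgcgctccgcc
Ccn1: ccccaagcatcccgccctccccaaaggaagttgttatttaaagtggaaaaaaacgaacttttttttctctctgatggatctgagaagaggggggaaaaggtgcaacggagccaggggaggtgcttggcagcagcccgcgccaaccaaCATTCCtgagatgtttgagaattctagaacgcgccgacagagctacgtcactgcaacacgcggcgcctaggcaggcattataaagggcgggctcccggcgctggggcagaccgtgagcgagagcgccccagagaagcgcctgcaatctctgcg
Amotl2: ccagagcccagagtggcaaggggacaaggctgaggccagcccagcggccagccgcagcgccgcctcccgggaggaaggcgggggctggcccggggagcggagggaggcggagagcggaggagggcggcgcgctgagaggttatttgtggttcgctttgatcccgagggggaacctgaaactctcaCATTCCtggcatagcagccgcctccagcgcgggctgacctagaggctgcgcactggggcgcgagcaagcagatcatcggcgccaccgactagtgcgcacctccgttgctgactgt

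**Figure D1:**
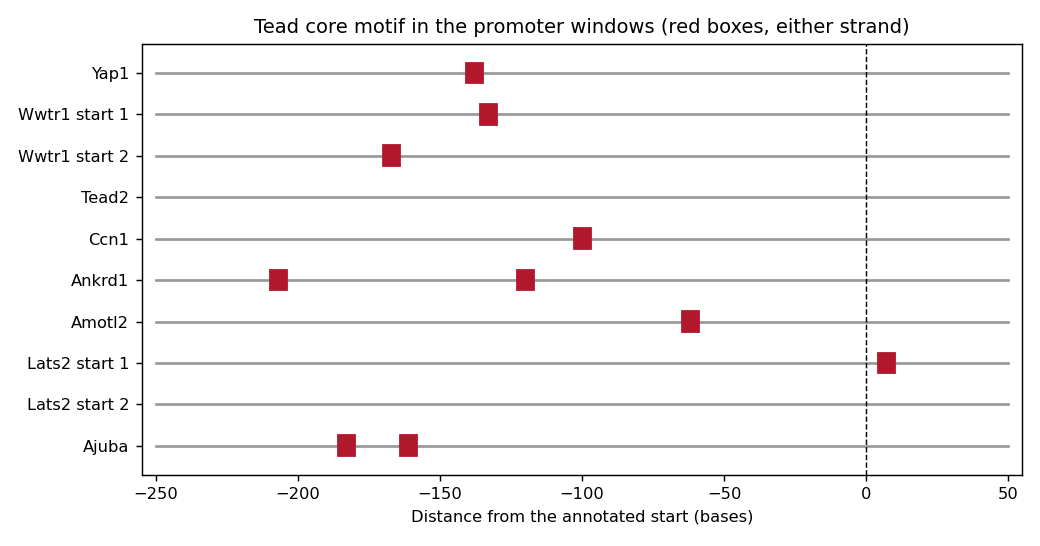
Places of the Tead core (red boxes, either strand) in the promoter windows of 8 genes, by distance in bases from the annotated start (dashed line); Wwtr1 and Lats2 have 2 annotated starts. Ankrd1 and Ajuba carry 2 boxes each, and the windows of Tead2 and of the second Lats2 start carry none.

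The first bases of the cores lay at -210 and -123 in Ankrd1, -186 and -164 in Ajuba, -103 in Ccn1, -65 in Amotl2 and -141 in Yap1, counted from the start. Lats2 had the core at position 5 after its first start. A match is a stretch of letters and not a measured binding site. Among all measured genes with a window, the core stood in 16.4% of those that rose in the knockout, 14.7% of those that fell and 15.3% of those not called. The CArG box, the element of the actin-regulated factor Srf, was in 0 of the 8 windowed genes and in 1.81% of all genes with a window. The same search found it in 4 of 15 Srf and contractile genes (26.7%). It looked for the exact box inside the promoter windows alone, so no gene can be said to lack the element. Control of the members by Srf was not tested.

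All values are log2 values relative to the median of that probe set over the 4 arrays, as deposited, so they carry the differences between lines but no level, and no gene can be said to be weakly or strongly expressed. For a single probe set this centring makes the middle pair of arrays equal and opposite, as in lines 4 and 6 at several genes below. A gene's value is the mean of its probe sets. Differences are Pf1 KO minus Pf1 WT with the standard error (SE) of the limma fit, n = 2 lines per genotype, and a gene was called at a Benjamini-Hochberg adjusted p under 0.05 over all genes. Fewer cells of a type and less RNA per cell cannot be told apart in these cultures.

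Before the results, some features of the lines bear on them. Phf12 probe set 1434922_at stood at -0.37 and -0.41 in KO lines 2 and 4, against 0.56 and 0.37 in WT lines 5 and 6, and was called lower (-0.86 ± 0.109 SE, limma adjusted p = 0.0213), while its other probe set, 1453579_at, differed by 0.012 (limma adjusted p = 0.965). Line 6 stood apart in sex-linked transcripts: Xist was at -0.018 and -0.023 in the KO lines, against -0.0079 in WT line 5 and 6.39 in WT line 6, and Uty at 0.13 and 0.054 in the KO lines, against -0.027 and -2.15 in WT lines 5 and 6. Values without line 6 are given below with those without each other line. With 1 line left out the fit keeps 1 residual degree of freedom and the lone line is assumed to vary like the other genotype. Limma then called 0 to 321 genes, against 2212 with all 4 lines.

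Of the 10 genes, 3 rose in the knockout (Ankrd1, Ajuba and Tead1), 0 fell and 7 did not pass the test. Over all genes, limma called 12.2% in either direction, 5.21% higher and 6.95% lower. The median difference of the 10 was 0.19, against -0.0027 over all genes, and single differences ran from -0.062 to 1.36. Both KO lines lay above both WT lines at 5 genes (the 3 called, Yap1 and Ccn2), with 28.7% of all genes in that state, and at the other 5 the genotypes overlapped. The gap between the genotype means exceeded both gaps within a genotype at 4 genes, Ankrd1, Ajuba, Tead1 and Yap1, against 47.3% of all genes.

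**Figure D2:**
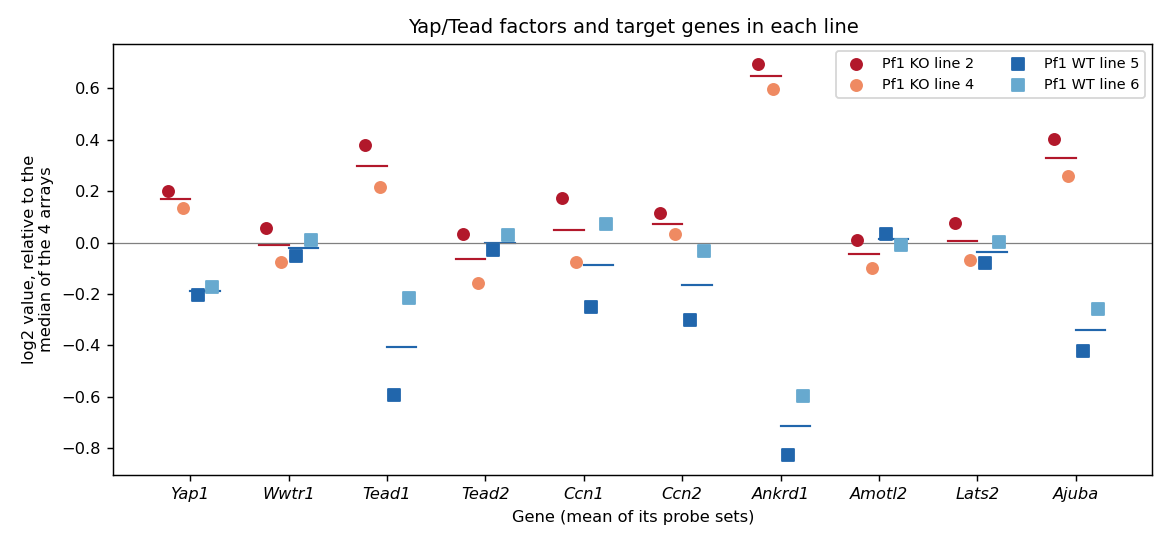
Log2 value of each gene in each line, relative to the median of the 4 arrays (points; circles for Pf1 KO, squares for Pf1 WT), with the mean of each genotype as a short bar. The KO points of Ankrd1, Ajuba, Tead1 and Yap1 lie clear of the WT points, whereas those of Wwtr1, Tead2, Ccn1, Amotl2 and Lats2 mix with them.

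Yap1 and Wwtr1 are the coactivators, proteins that cannot bind DNA alone. Yap1 was at 0.20 and 0.14 in KO lines 2 and 4, against -0.20 and -0.17 in WT lines 5 and 6. The genotypes did not overlap and each pair of lines was tight, yet the gene mean just missed the threshold (0.36 ± 0.0818 SE, limma adjusted p = 0.0541). Its probe sets disagreed. Probe set 1416487_a_at was at 0.38 and 0.25 in KO lines, against -0.39 and -0.25 in WT lines, and rose 1.55-fold (0.64 ± 0.106, limma adjusted p = 0.0332 over all probe sets). Probe set 1448363_at was at 0.027 and 0.018 in KO lines, against -0.018 and -0.093 in WT lines, and did not pass (0.078, interval of the difference -0.16 to 0.31, limma adjusted p = 0.682). An _a_at probe set was designed to match several transcripts of one gene.

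Wwtr1 was at 0.057 and -0.074 in KO lines, against -0.050 and 0.010 in WT lines. The genotypes overlapped, and the difference of 0.011 had a 95% interval of -0.22 to 0.24 (limma adjusted p = 0.959). Its 3 probe sets gave differences between -0.078 and 0.087. The change of Yap1 minus that of Wwtr1 was 0.35. The centred value of Yap1 minus that of Wwtr1 was 0.15 and 0.21 in the KO lines, against -0.15 and -0.18 in the WT lines. Such centred values do not rank the genes by level. The exact two-sided permutation test over the 4 lines gave p = 0.333, the smallest that 2 lines against 2 allow, and the same p after adjustment over the 7 pairs compared in this way.

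Tead1 and Tead2 encode DNA-binding partners of the coactivators. Tead1 was at 0.38 and 0.22 in KO lines 2 and 4, against -0.59 and -0.22 in WT lines 5 and 6. The KO lines lay above both WT lines, and WT line 5 was the lowest by a wide gap. Tead1 rose 1.63-fold (0.70 ± 0.151 SE, limma adjusted p = 0.0472), close to the threshold. Its call was lost without KO line 2 (0.62, limma adjusted p = 0.223), KO line 4 (0.78, limma adjusted p = 0.131), WT line 5 (0.51, limma adjusted p = 0.127) or WT line 6 (0.89, limma adjusted p = 0.0542), and with the median of the probe sets, where the difference is the same and the limma adjusted p is 0.0524.

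The increase of Tead1 was uneven over its probe sets. Probe set 1423434_at was at 0.58 and 0.37 in KO lines, against -1.10 and -0.37 in WT lines (1.21 ± 0.252 SE, limma adjusted p = 0.0513 over all probe sets). Probe set 1429556_at was at 0.17 and 0.068 in KO lines, against -0.090 and -0.068 in WT lines (0.20 ± 0.0956, limma adjusted p = 0.278). Neither passed on its own, and both had the KO lines above the WT lines. The difference between the 2 probe sets changed by 1.01 with genotype (exact permutation p = 0.333, the smallest possible).

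Tead2 was at 0.035 and -0.16 in KO lines, against -0.031 and 0.031 in WT lines. The genotypes overlapped, with a difference of -0.062 and a 95% interval of -0.32 to 0.20 (limma adjusted p = 0.756). The change of Tead1 minus that of Tead2 was 0.77, and this difference was 0.34 and 0.38 in the KO lines, against -0.56 and -0.25 in the WT lines (exact permutation p = 0.333, the smallest possible).

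**Figure D3:**
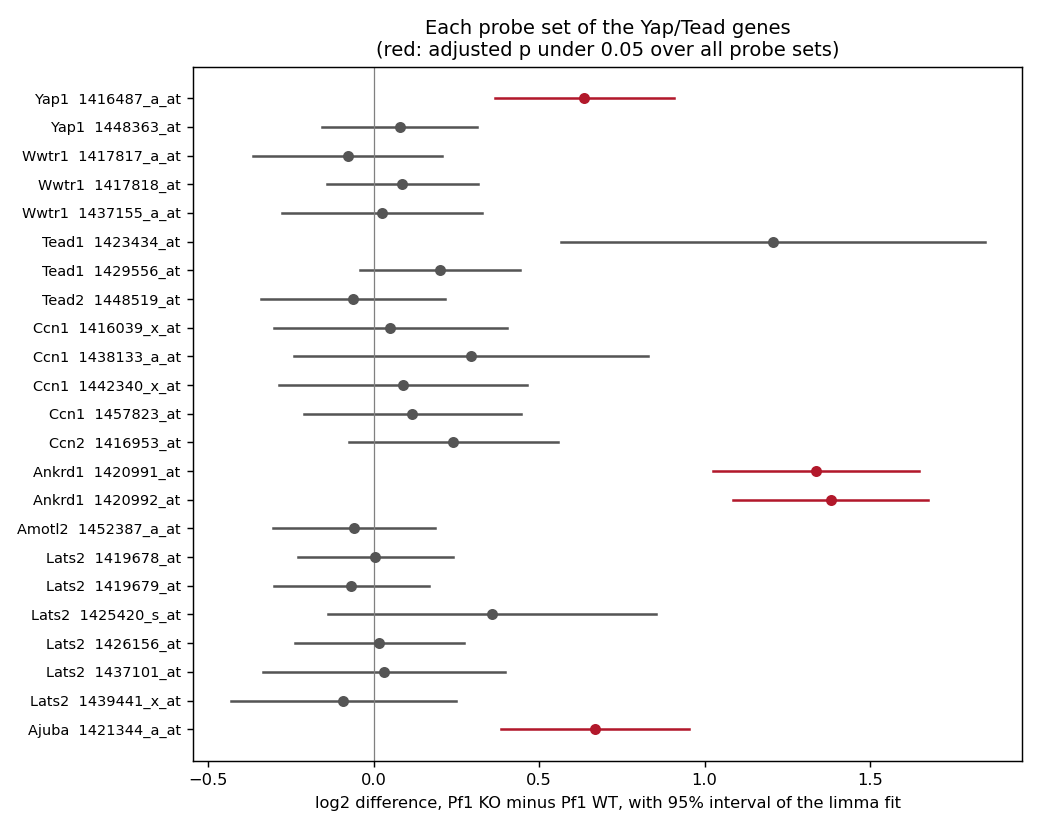
Log2 difference, Pf1 KO minus Pf1 WT, of each of the 23 probe sets (points) with the 95% interval of the limma fit (lines); red marks an adjusted p under 0.05 over all probe sets. The 4 red ones are both Ankrd1 probe sets, 1 of 2 for Yap1 and the single Ajuba probe set.

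At the level of probe sets, 4 of 23 were called, all higher, against 8.32% of all probe sets in either direction and 3.92% higher. They belonged to Ankrd1, Yap1 and Ajuba. The call of Tead1 therefore rests on the mean of 2 probe sets that were each short of the threshold.

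Ankrd1, a nuclear ankyrin-repeat protein of stretched heart and skeletal muscle that is also a standard readout of Yap1 activity in fibroblasts, changed most of the 10. It was at 0.70 and 0.60 in KO lines 2 and 4, against -0.83 and -0.60 in WT lines 5 and 6. The genotypes stood far apart with little spread inside either. Ankrd1 rose 2.56-fold (1.36 ± 0.111 SE, limma adjusted p = 0.0124) and held place 54 among 18193 genes ordered from the highest difference. Both probe sets moved alike, 1420991_at by 1.34 and 1420992_at by 1.38 (limma adjusted p = 0.0156 and 0.0137). Without 1 line the difference lay between 1.24 and 1.47. The call held without KO line 4 (1.41, limma adjusted p = 0.0412) and was lost without KO line 2 (1.31, limma adjusted p = 0.0717), WT line 5 (1.24, limma adjusted p = 0.0887) or WT line 6 (1.47, limma adjusted p = 0.0527).

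Ccn1 and Ccn2 encode secreted matricellular proteins that bind integrins, and both are commonly used to read Yap1 activity. Ccn2 was at 0.11 and 0.033 in KO lines, against -0.30 and -0.033 in WT lines. The KO lines lay above the WT lines, but the gap was widest to WT line 5, and the difference did not pass (0.24 ± 0.118 SE, interval -0.061 to 0.54, limma adjusted p = 0.258). It was 0.11 without WT line 5 and 0.37 without WT line 6.

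Ccn1 was at 0.17 and -0.074 in KO lines, against -0.25 and 0.074 in WT lines. The genotypes overlapped, since WT line 6 was above KO line 4. The difference was 0.14 ± 0.151 SE (interval -0.25 to 0.52, limma adjusted p = 0.622), and it was -0.025 without WT line 5. All 4 probe sets of Ccn1 overlapped as well, with differences from 0.051 to 0.29.

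The difference of Ankrd1 was larger than that of either Ccn gene. The change of Ankrd1 minus that of Ccn1 was 1.22, and this difference was 0.52 and 0.67 in the KO lines, against -0.58 and -0.67 in the WT lines. For Ankrd1 minus Ccn2 it was 1.12, with 0.58 and 0.56 in the KO lines, against -0.53 and -0.56 in the WT lines. Both had an exact permutation p of 0.333, the smallest possible. The fitted 95% interval of Ankrd1, 1.07 to 1.64, lay above those of both Ccn genes.

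Amotl2, Lats2 and Ajuba act on the cascade itself. Amotl2 is an angiomotin, a scaffold that holds Yap1 at junctions. It was at 0.0088 and -0.099 in KO lines, against 0.035 and -0.0088 in WT lines, with a difference of -0.058 (interval -0.28 to 0.16, limma adjusted p = 0.729). Lats2, the kinase that phosphorylates Yap1, was at 0.075 and -0.066 in KO lines, against -0.079 and 0.0035 in WT lines, with a difference of 0.042 (interval -0.20 to 0.28, limma adjusted p = 0.829). Both genes overlapped between the genotypes. Of the 6 Lats2 probe sets, 5 differed by between -0.091 and 0.031. The sixth, 1425420_s_at, was at 0.20 and -0.0035 in KO lines, against -0.52 and 0.0035 in WT lines (0.36 ± 0.195 SE, limma adjusted p = 0.34), with WT line 5 the lowest again. A further 1 probe set was annotated to Lats2 together with another gene and was left out.

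Ajuba is a LIM-domain protein of cell junctions that binds and inhibits Lats kinases. It was at 0.40 and 0.26 in KO lines 2 and 4, against -0.42 and -0.26 in WT lines 5 and 6, in its 1 probe set, 1421344_a_at. The genotypes were well apart, and Ajuba rose 1.59-fold (0.67 ± 0.104 SE, limma adjusted p = 0.0261). Its difference lay between 0.59 and 0.75 with 1 line left out, and the call was lost without KO line 2 (0.60, limma adjusted p = 0.154), KO line 4 (0.74, limma adjusted p = 0.0865), WT line 5 (0.59, limma adjusted p = 0.11) or WT line 6 (0.75, limma adjusted p = 0.0593). The change of Ajuba minus that of Lats2 was 0.63 (exact permutation p = 0.333, the smallest possible).

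Inside each genotype the lines kept one order at most of the 10 genes. KO line 2 was above KO line 4 at 10 of 10 genes, against 51.9% of all genes, and WT line 5 was below WT line 6 at 9 of 10, against 51.5% of all genes. KO line 2 was the highest line at 9 genes and WT line 5 the lowest at 7. This order was not particular to the 10 genes. Set against the mean of the WT lines, the Srf and contractile list below had medians in the same order. They were 0.68 and 0.46 in KO lines 2 and 4, against -0.061 and 0.061 in WT lines 5 and 6. The gap between WT lines 5 and 6 was widest at Tead1 (-0.38), Ccn1 (-0.33), Ccn2 (-0.27) and Ankrd1 (-0.23), and narrowest at Yap1 (-0.031) among all 10.

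**Figure D4:**
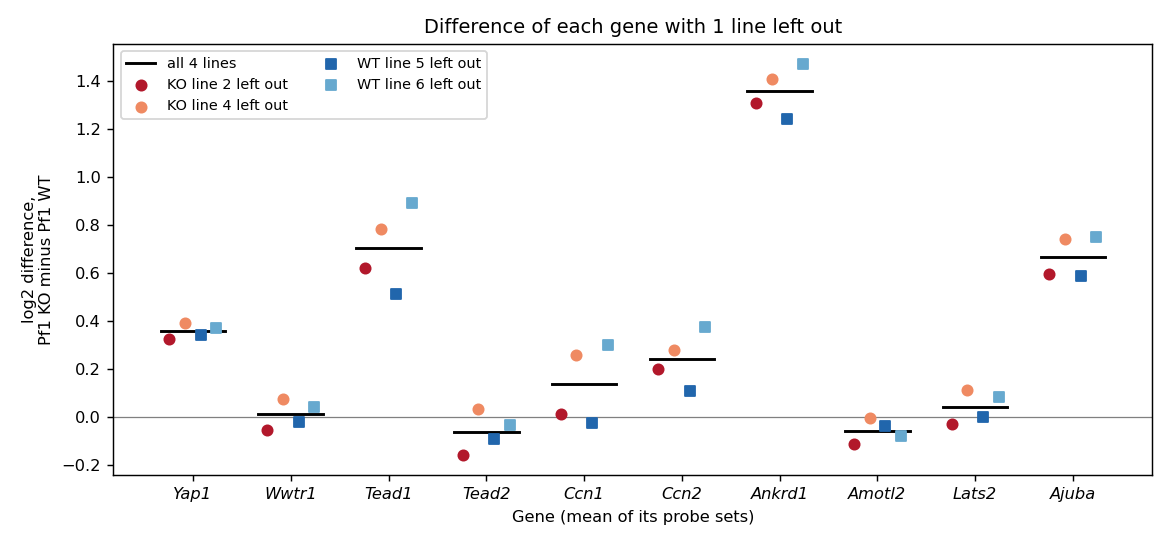
Log2 difference, Pf1 KO minus Pf1 WT, of each gene with all 4 lines (black bar) and with 1 line left out (points, coloured by the line left out). Ankrd1 stays between 1.24 and 1.47 and Ajuba between 0.59 and 0.75, Tead1 runs from 0.51 without WT line 5 to 0.89 without WT line 6, and Wwtr1, Tead2, Ccn1 and Lats2 cross 0.

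Other target genes of Yap1 were split. Of 22 listed genes, all measured, 3 rose, 3 fell and 16 did not pass, with a median difference of 0.033. For this list and those that follow, the share over all genes was 12.2% called, 5.21% higher and 6.95% lower. Crim1, a transmembrane regulator of growth factors, rose 2.07-fold (1.05 ± 0.099 SE, limma adjusted p = 0.0144) and Tgfb2, a transforming growth factor, 2.26-fold (1.17 ± 0.194, limma adjusted p = 0.0285). Igfbp3, which binds insulin-like growth factors, was 5.55-fold lower in the knockout (-2.47 ± 0.469, limma adjusted p = 0.0367) and the stress-response gene Gadd45a 2.16-fold lower (-1.11 ± 0.18, limma adjusted p = 0.0276). Igfbp3 was at -1.24 and -0.77 in KO lines, against 2.17 and 0.77 in WT lines, so WT line 5 was much the highest. Anln (0.64) and Rbms3 (-0.52) were the remaining called genes, named after their values were seen. With 1 line left out, 0 or 1 of the 22 were called.

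Upstream in the cascade, 3 of 22 measured kinase and regulator genes rose, 3 fell and 16 did not pass, with a median of 0.17 (Stk3, also listed, was not analysed here). The kinase Stk4 (0.54 ± 0.083 SE, limma adjusted p = 0.0254) and the Lats activator Mob1b (0.76 ± 0.117, limma adjusted p = 0.0258) rose. The giant cadherin Dchs1 (-0.89 ± 0.0813, limma adjusted p = 0.014) and the FERM protein Frmd6 (-0.66 ± 0.104, limma adjusted p = 0.0266) fell. Taok1, a kinase upstream of Stk4, rose (0.46) and Fat4, the cadherin that pairs with Dchs1, fell (-0.58), both named after their values were seen. Each of the 6 calls was lost with any 1 line left out (limma, 6 to 11 genes at an unadjusted p under 0.05).

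Among 6 other Tead and Vgll genes, whose products are Tead proteins or compete with Yap1 for them, 1 rose, Vgll3 (0.41 ± 0.0863 SE, limma adjusted p = 0.0447), and 5 did not pass. That is 16.7% of the list, near the 12.2% of all genes. Vgll3 was not called with the median of its probe sets or with any 1 line left out.

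Ankrd1, Ccn1 and Ccn2 also answer to Srf and its actin-sensing cofactors, the Mrtf proteins. Of 19 genes for these factors and their contractile targets, 9 rose, 0 fell and 10 did not pass, with a median of 0.54. Over all genes 12.2% were called. All 19 differences were positive, against 8955 of all 18193 genes. Because the list was chosen with earlier results of these data known, this count is a description and not a test. Smooth muscle myosin Myh11 (0.95 ± 0.0888 SE, limma adjusted p = 0.0144), the light chain Myl9 (0.69 ± 0.0964, limma adjusted p = 0.0211), the actin Actg2 (0.89 ± 0.131, limma adjusted p = 0.0238) and Srf itself (0.76 ± 0.113, limma adjusted p = 0.024) had the smallest p. Set against the mean of the WT lines, this list had a median of 0.68 and 0.46 in KO lines 2 and 4, against -0.061 and 0.061 in WT lines 5 and 6. For the 10 Yap/Tead genes it was 0.27 and 0.11 in the KO lines, against -0.062 and 0.062 in the WT lines. Between 0 and 1 of the 19 were called with 1 line left out.

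Relatives of Ccn1 and Ccn2 and the immediate-early factors were examined next, again with 12.2% of all genes called for comparison. Of 10 measured Ccn and matricellular genes, 0 rose, 4 fell and 6 did not pass, with a median of -0.28. Those that fell were the thrombospondins Thbs4 (-3.55 ± 0.284 SE, limma adjusted p = 0.0122) and Thbs2 (-1.33 ± 0.281, limma adjusted p = 0.0457), and Ccn3 (-1.40 ± 0.241, limma adjusted p = 0.0311) and Ccn5 (-0.41 ± 0.0889, limma adjusted p = 0.0487). With 1 line left out, 0 to 2 were called. Of 13 immediate-early factors, which serum induces together with Ccn1, 0 rose, 1 fell (Egr1, -0.61 ± 0.128, limma adjusted p = 0.0451) and 12 did not pass, and Egr1 was not called with any 1 line left out.

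**Figure D5:**
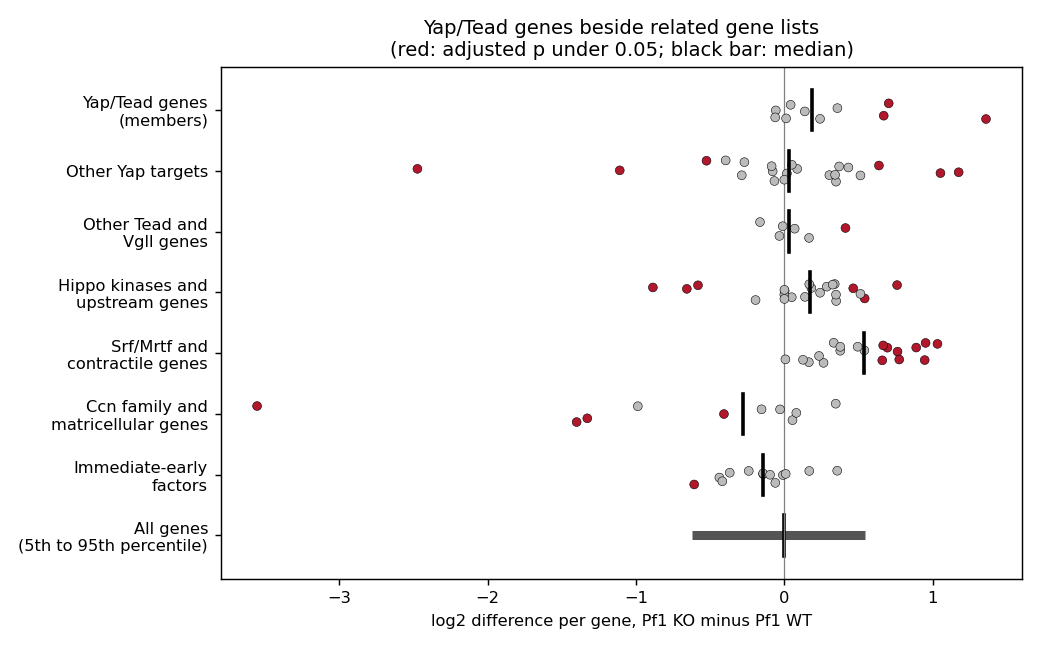
Log2 difference per gene, Pf1 KO minus Pf1 WT, for the 10 Yap/Tead genes and 6 related lists (points; red for an adjusted p under 0.05), with list medians as black bars and the 5th to 95th percentile of all genes as a grey bar. All 19 points of the Srf and contractile list are above 0, while other Yap targets lie on both sides.

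Markers of several cell types, fibroblasts included, were examined as well, and only some of the lists moved with genotype. For comparison, limma called 5.21% of all genes higher and 6.95% lower. Of 10 smooth muscle markers 7 rose and 0 fell (median 0.78), with Mcam at 1.44 as the largest difference and Tagln at 0.38 as the smallest. Acta2, Actg2, Cnn1, Lmod1, Myh11 and Tagln, all but Tagln called, are also in the Srf and contractile list. The counts of these lists are therefore not separate results. Of 16 markers of striated and heart muscle, where Ankrd1 is also expressed, 3 rose and 0 fell (median -0.045), from -0.35 for Myh8 to 3.14 for Acta1. Of 12 measured fibroblast markers 8 fell and 0 rose (median -0.72), from -3.33 for Lum to -0.051 for Vim. Among 10 epithelial markers 4 rose and 1 fell (Krt8 at 2.42, Krt19 at -0.39), among 8 endothelial markers 1 rose and 1 fell (Emcn at 1.85, Tek at -0.72), and among 6 mesothelial markers 1 rose and 0 fell (Msln at 0.59, named after its value was seen; the extremes, Lrrn4 at 0.91 and Wt1 at -0.28, did not pass). Limma called 0 of 10 macrophage markers (0 at an unadjusted p under 0.05), whose median, set against the mean of the WT lines, was 0.078 and 0.80 in KO lines 2 and 4, against 0.88 and -0.88 in WT lines 5 and 6. Whether defining markers are absent cannot be read from centred values, and the part of these cells in the values of the Yap/Tead genes was not tested.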

How the data were processed

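Total RNA of the 4 lines was labelled with biotin and hybridised to Affymetrix mouse arrays, 1 per line. The deposited log2 values were made, per the submitters' processing notes, with RMA in Affymetrix Expression Console, which corrects background, normalises by quantiles and summarises each probe set. Versions and log base are not given in the sources used here; log2 is the scale of RMA. Every probe set of the deposited log2 table has a median of 0 over the arrays (within 5e-07), a centring the labels do not describe, so detection and signal over background could not be read. The precision is limited by having 4 arrays.

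Of 45101 probe sets, 34958 had 1 gene in the platform annotation, 932 several, 9160 none beside controls, and 64 were controls. Entrez identifiers matched 34754 to RefSeq (GRCm38.p6) and changed 0 symbols. Probe sets of 1 gene were averaged to 18193 genes. Pf1 KO minus Pf1 WT was tested in limma (version 3.58.1, R 4.3.3) by lmFit and eBayes with genotype alone (2 residual and 3.04 prior degrees of freedom for genes), separately over all genes and all probe sets that were not controls, and the fit was tested on simulated data. Intervals are 95% intervals of this fit. The labels assign neither passage nor embryonic day to lines, so either could be confounded with genotype. They give no sex, but by Xist and the Y-linked Uty only WT line 6 read as female. Sex was therefore not balanced between the genotypes. Named genes were the 10 members, Phf12, up to 4 called genes of the smallest p per related list, and the extremes of marker lists. Members and lists were chosen with earlier results of these data known. Alternatives were the median of probe sets, leaving out _s_at and _x_at probe sets, quantile normalisation, array centring, array weights, robust eBayes and leaving out each line.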

Additional observations from a re-analysis of the deposited data

How the results depend on the processing

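With any 1 line left out, the differences of Ankrd1, Ajuba, Tead1, Yap1 and Ccn2 stayed above 0 and that of Amotl2 below 0, while those of Wwtr1 (-0.054 to 0.077), Tead2 (-0.16 to 0.035), Ccn1 (-0.025 to 0.30) and Lats2 (-0.028 to 0.11), none of them called, crossed 0. Wwtr1 also turned to -0.0029 with quantile normalisation and Lats2 to -0.0033 without _s_at and _x_at probe sets. The quantile step acted on values that RMA had already normalised and that were centred per probe set. It therefore evened the spread of the deviations between arrays, and limma then called 2664 genes, against 2212 in the main fit. Yap1 was called with quantile normalisation (0.35, limma adjusted p = 0.0446), and over all 10 alternatives its limma adjusted p ran from 0.0446 to 0.293. With 1 line left out, limma called 0 to 321 of all genes (3296 to 5418 at an unadjusted p under 0.05), 0 to 1 of the 10 Yap/Tead genes (3 to 5 unadjusted), 0 to 10 of all probe sets and 0 of the 23 (5 to 8 unadjusted). Over the related lists together, 0 to 4 genes were called, against 27 with all lines: 0 Hippo genes, 0 other Tead and Vgll genes, 0 to 1 other Yap targets, 0 to 1 Srf and contractile genes, 0 to 2 matricellular genes and 0 immediate-early factors. The loss of calls goes with 1 residual degree of freedom. With the median of the probe sets, 0 other Tead and Vgll genes were called. The remaining counts of called genes and probe sets were within 1.5 times their value in every alternative run with all 4 lines. No paired analysis was possible because the line numbers of KO (2, 4) and WT (5, 6) differ. The 4 lines carry 1 common prefix, 7706, which defines no pairs either. With 2 lines per genotype, differences as small as those of Ccn1 and Ccn2 could not be told from 0.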
